A study of Saccharomyces cerevisiae with 8 samples.

Results

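Hybrid Sce2965 is a Saccharomyces cerevisiae strain whose parental lines had each adapted to an environment of its own. Its transcript levels were measured on 4 of the 8 spotted cDNA arrays of the series, chosen because the label of their second channel names Sce2965 as the RNA source. Per the labels, hybrid RNA competed on each of the 4 arrays with pooled RNA of the parents sce2713 and sce2902 in the first channel. This pool is called the mix here. The hybrid carried Cy5 on replicates 2 and 3 and Cy3 on replicates 1 and 4. The other 4 arrays set hybrid Sce2950 against a mix of its own parental lines, sce2709 and sce2898. They entered the fit to help estimate the spread and the effect of the dye. The series states that its question was how genomes that had adapted apart act together in a hybrid, and that it did not set out to measure adaptation itself. Cultures were started from a single colony and grown in diluted YPD medium to a low optical density, per the label of an array that describes them. Which environment each parent had adapted to, the ploidy of the strains and the proportions of the mix are not given in the sources used here.

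In a hybrid the alleles of both parents share a nucleus and a common set of regulators. If each allele kept the output it had in its parent, the transcript level of the hybrid would lie near the blend of the parents. A level above or below that blend is called non-additive expression or misexpression, and it can arise when regulators from one lineage act on genes of the other. Changes that are harmless in the lineage in which they arose and harmful in combination are the classic model of how hybrid incompatibility begins. A ratio of hybrid to parental mix measures the departure from the blend and says nothing of how the parents differ from each other.

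Each value is the log2 of the hybrid signal over the mix signal: 0 is the level of the mix and 1 a doubling. Each feature was printed as 2 neighbouring spots, which were averaged. Testing needed a measured ratio on 3 or more arrays per hybrid, and 6526 features met this. The spots carry no names in the scanner files and no table pairing spots with genes was used here, so features are given by spot number, and at most 2 that rose and 2 that fell are given by number. No gene list could be matched to the spots. For the same reason the strains were not checked against marker transcripts and no sequences are shown.

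The 4 arrays came from slides of unlike quality. By the leading digits of their slide numbers, replicates 1 and 2 came from an early slide series that held no other hybrid, and replicates 3 and 4 from a later series that also held replicates 3 and 4 of Sce2950. The ratios of duplicate spots differed with an SD of 0.354 on replicate 1 and 0.411 on replicate 2, against 0.106 on each of replicates 3 and 4. Location on the slide moved in the same way. Differences between the 48 print blocks made up 44.6% and 31.8% of the variance of the ratios on the early slides and 9.86% and 12.7% on the later ones. The SD of the ratios over features was 0.465 and 0.528 on the early slides and 0.30 and 0.286 on the later ones. With loess fitted within print blocks, the block share was at most 0.384% on the 4 arrays and the SD was 0.278, 0.363, 0.274 and 0.26 for replicates 1 to 4. The header image names of replicates 1 and 2 name only sce2713 for the first channel, where the labels name both parents. The labels were followed, and which source is right was not tested. With sce2713 alone in that channel, the early ratios would also hold differences between the parents.

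Most transcripts of Sce2965 lay close to the parental mix. The fitted ratio was within 1.5-fold of the mix for 99.0% of features, and its SD over all features was 0.186. More than 1.5-fold from the mix lay 30 features on the upper side and 38 on the lower, and 4 on each side differed by more than 2-fold. Of these 8, 5 passed the test described next. The 3 that did not had SDs between arrays of 0.698 to 0.772, so a single array carried much of their ratio. The highest fitted ratio of all, 1.15, was among those that did not pass.

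The first comparison asked which features departed from the mix. In limma, 28 of 6526 features passed an adjusted p of 0.05, which is 0.429% of those tested. The count was 0 in the limma fits to the Sce2965 arrays alone, with or without a dye term, after median centring, and after normexp with offset 0. Their counts at an unadjusted p under 0.05 were 195 and 187 of 6527 features, and 183 and 314 of 6526. Each is under a share of 0.05, the share that would pass with no departure at all and a well-estimated error. How well these fits estimate the error was not tested, and the fit without a dye term leaves dye differences in it. Of the 28, 13 lay above the mix (0.199%) and 15 below it (0.23%), so departures went both ways. Those above ranged from 0.63 to 1.10 with a median of 0.83, or 1.78-fold. Those below ranged from -1.02 to -0.72 with a median of -0.95, or 1.94-fold lower than the mix. Over all features the median was 0.00, where global loess centres each array, and the median size was 1.08-fold. All 28 lay on their side of the mix on all 4 arrays, while among the 6507 features measured on all 4 arrays, 285 (4.38%) were above the mix on every array and 338 (5.19%) below. The unadjusted limma p was under 0.05 for 362 features, or 5.55%. The count of 28 rested on few arrays: it was 5 (0.0766%) without replicate 1 and 28 without replicate 2. Only 21 of the reported 28 were among those called without replicate 2. The count was 0 without replicate 3 or without replicate 4. At an unadjusted p under 0.05 these last 2 limma fits had 440 and 477 features. Arrays of Sce2950 inform the spread and the dye coefficient shared by the hybrids. That coefficient also adjusts the Sce2965 ratio when a Sce2965 array is left out. The count was 28 without Sce2950 replicate 2, 20 without its replicate 1 or 3, and 16 without its replicate 4. Those called without its replicate 2 held 26 of the reported 28.

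**Figure D1:**
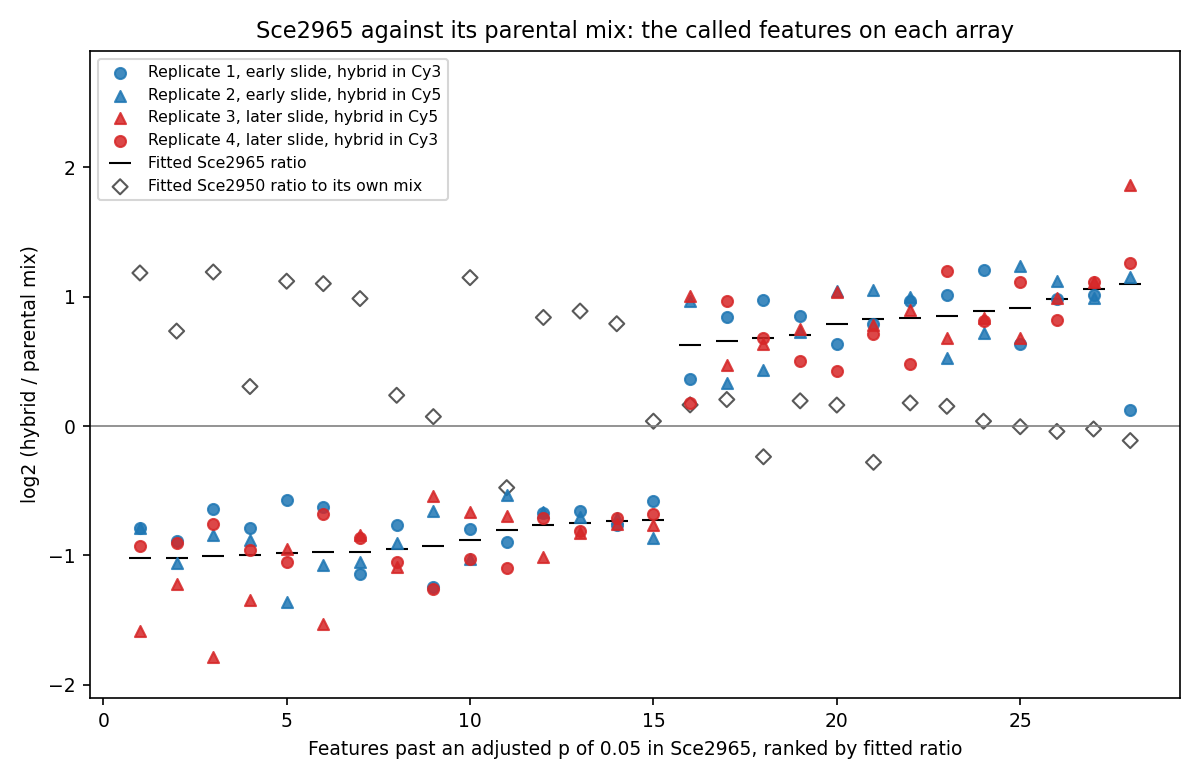
Log2 ratio of hybrid over parental mix (vertical axis) for the 28 called features, ranked by fitted ratio (horizontal axis). Circles and triangles are the 4 arrays of Sce2965, coloured by slide series and shaped by dye. Dashes are fitted Sce2965 ratios and open diamonds the fitted ratios of Sce2950 to its own mix. The 15 features on the left lie below 0 on every Sce2965 array and the 13 on the right above it.

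The departures were present on both slide series. Among the 13 features above the mix, the median ratio was 0.85, 0.99, 0.83 and 0.81 on replicates 1 to 4. Among the 15 below, it was -0.77, -0.87, -0.95 and -0.90. The mean of the early slides lay between 0.59 and 1.05 for the former and between -1.09 and -0.67 for the latter. On the later slides the ranges were 0.59 to 1.56 and -1.27 to -0.72. The departure was larger on the later slides for 4 of the 13 features above the mix and 10 of the 15 below. These features were called from the same 4 arrays, so the values describe them and do not test them. The 3 features just inside the threshold had ratios of 0.79, 0.63 and 0.92 (limma adjusted p between 0.0331 and 0.0381), and the 3 just outside had 0.72, 0.59 and -0.81 (limma adjusted p = 0.0547 each). These neighbours were alike in size, and all 6 lay on one side of the mix on all 4 arrays.

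Spots 919 and 920 made up the feature with the highest ratio among those called above the mix. Its ratios were 0.12, 1.15, 1.86 and 1.26 on replicates 1 to 4, which gave 1.10 ± 0.724 (SD, n = 4; limma adjusted p = 0.0281), or 2.14-fold. Replicate 1 was close to the mix and the others well above it. It was also a dim feature, brighter than 40.7% of features. On replicate 1 both channels were almost dark, at mean intensities of 26.9 for the mix and 30.7 for the hybrid, against 192 and 450 on replicate 3 and 244 and 707 on replicate 4. The spots disagreed there before normalization: spot 919 gave 52.6 for the mix and 34.4 for the hybrid, and spot 920 gave 1.15 and 27.0. The ratio of replicate 1 therefore rests on little signal. The call was lost without replicate 3, at 0.96 (limma adjusted p = 0.239), and without replicate 4, at 0.86 (limma adjusted p = 0.198). It was also lost with the authors' deposited values, at 1.01 (limma adjusted p = 0.24), and held with print-tip loess, at 1.04 (limma adjusted p = 0.0142). The background correction also moved the ratio: it was 0.74 with none (limma adjusted p = 0.851) and 1.67 after normexp with offset 0 (limma adjusted p = 0.066). It was 0.63 without replicates 3 and 4 (limma adjusted p = 0.66).

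A second feature, printed at spots 6163 and 6164, exceeded the mix by nearly the same amount on each array. Its ratios were 1.01, 0.99, 1.11 and 1.11, or 1.06 ± 0.0652 (SD, n = 4; limma adjusted p = 0.00682), which is 2.08-fold. It was a bright feature, brighter than 95.6% of features. On replicate 4 the mean intensity was 2130 for the mix and 5591 for the hybrid. Its duplicate spots also lay close to each other, at 1.06 and 1.16 on that array and at 1.11 and 0.91 on replicate 1. With print-tip loess it stood at 1.07 (limma adjusted p = 0.000189). The ratio stayed between 0.94 and 1.13 in 30 other settings, while the call was lost in 8 of them, without replicate 3 (limma adjusted p = 0.0923) and without replicate 4 (limma adjusted p = 0.111) among them.

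Among features below the mix, spots 6263 and 6264 had the lowest fitted ratio. The values were -0.79, -0.79, -1.59 and -0.92 on replicates 1 to 4, or -1.02 ± 0.381 (SD, n = 4; limma adjusted p = 0.0208), which is 2.03-fold lower than the mix. Replicate 3 was lowest by far and the other arrays lay close together. On replicate 3 both spots gave the same picture, at -1.57 and -1.60, so its low value was not due to a single spot. With print-tip loess the ratio was -0.66 (limma adjusted p = 0.352), and with the deposited values of the authors it was -0.61 (limma adjusted p = 0.857). Both values are over 1.5 times smaller than with global loess. The call was also lost without replicate 1, at -1.04 (limma adjusted p = 0.0863), without replicate 3, at -0.88 (limma adjusted p = 0.201), and without replicate 4, at -0.98 (limma adjusted p = 0.167).

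Next came spots 2027 and 2028, which were less variable. It stood at -0.89, -1.06, -1.22 and -0.90 on replicates 1 to 4, or -1.02 ± 0.157 (SD, n = 4; limma adjusted p = 0.00682), which is 2.03-fold lower than the mix. All arrays lay within a narrow band. On replicate 3 the mix gave a mean intensity of 10796 and the hybrid 3836, and only 1% of features were brighter. With print-tip loess the ratio was -0.95 (limma adjusted p = 0.00713). The call was lost without replicate 3, at -0.98 (limma adjusted p = 0.0923), and without replicate 4, at -1.02 (limma adjusted p = 0.111), with little change in the ratio.

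**Figure D2:**
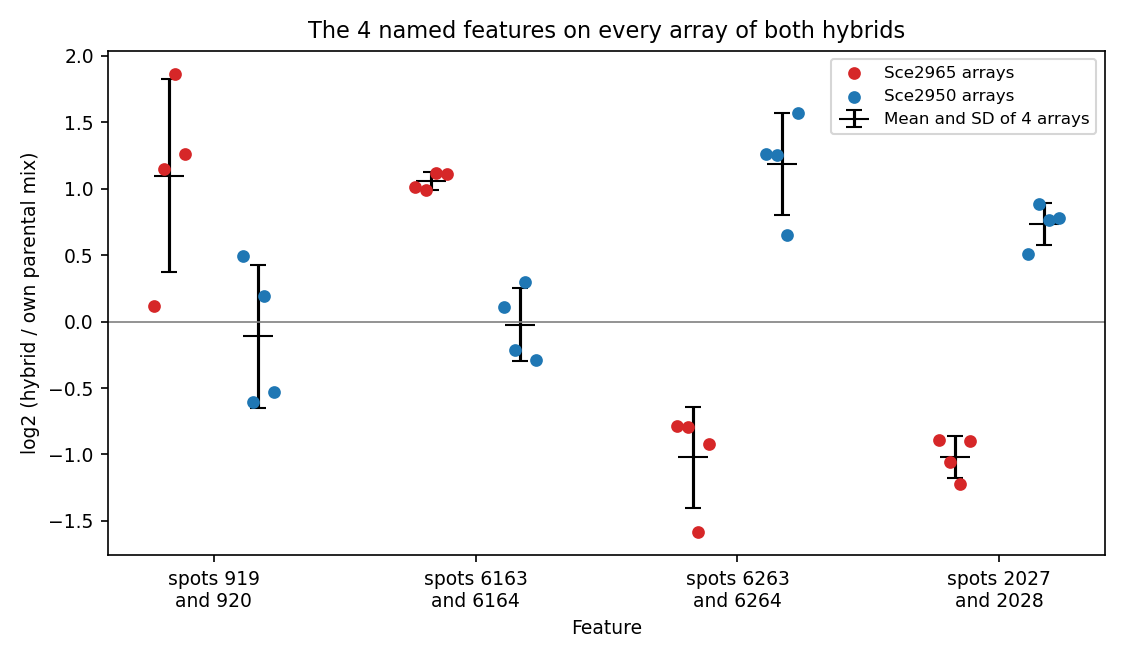
Log2 ratio of each hybrid over its own parental mix (vertical axis) for the 4 features given by spot number (horizontal axis). Red points are the 4 arrays of Sce2965, blue points the 4 arrays of Sce2950, and bars the mean and SD of 4 arrays. Spots 6163 and 6164 lie between 0.99 and 1.11 in Sce2965, and spots 919 and 920 between 0.12 and 1.86.

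Calls were concentrated among bright features. When features were ranked by their mean brightness in the Sce2965 arrays and divided into 4 equal groups, 26 of the 28 fell in the brightest group, where 1.59% of features were called. The group below it held 1, the next held 1 and the dimmest 0. In the dimmest group 1632 features were tested and the median SD between arrays was 0.36, against 0.284 in the brightest. The SD of the fitted ratios was 0.149 in the dimmest and 0.249 in the brightest. Brightness thus moved with both the size and the precision of the ratios as processed, and its part in the number of calls was not tested. The background correction added a constant, the offset, to both channels, which shrinks the log2 ratios of dim features most. How far this offset set the smaller SD of the fitted ratios in the dimmest group was not tested. The 28 were spread over the slide, in 21 of the 48 print blocks with at most 2 in a block, and 0 pairs of them were printed next to each other.

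The same dependence on brightness appeared in how well the slide series agreed. Each series held both dye orientations, so a dye bias common to its 2 slides cancels in its mean. Across features, the mean ratio of the early slides and that of the later slides had a Pearson correlation of 0.621 in the brightest group (Spearman 0.544, 1630 features). From the dimmest group upward the other Pearson correlations were 0.012, 0.0577 and 0.148. With print-tip loess the correlation in the brightest group was 0.67, and it was 0.672 in the authors' deposited table. In these 3 sources of ratios the brightest group had the highest correlation. In the same group the early slides of Sce2965 and the later slides of Sce2950 correlated at -0.0791, and the later slides of Sce2965 and the early slides of Sce2950 at -0.124. Within Sce2950 the early and later slides correlated at 0.674. The hybrids were compared here only across slide series, not on the later slides that held both. Features are not independent replicates, and the correlations are given as a description.

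**Figure D3:**
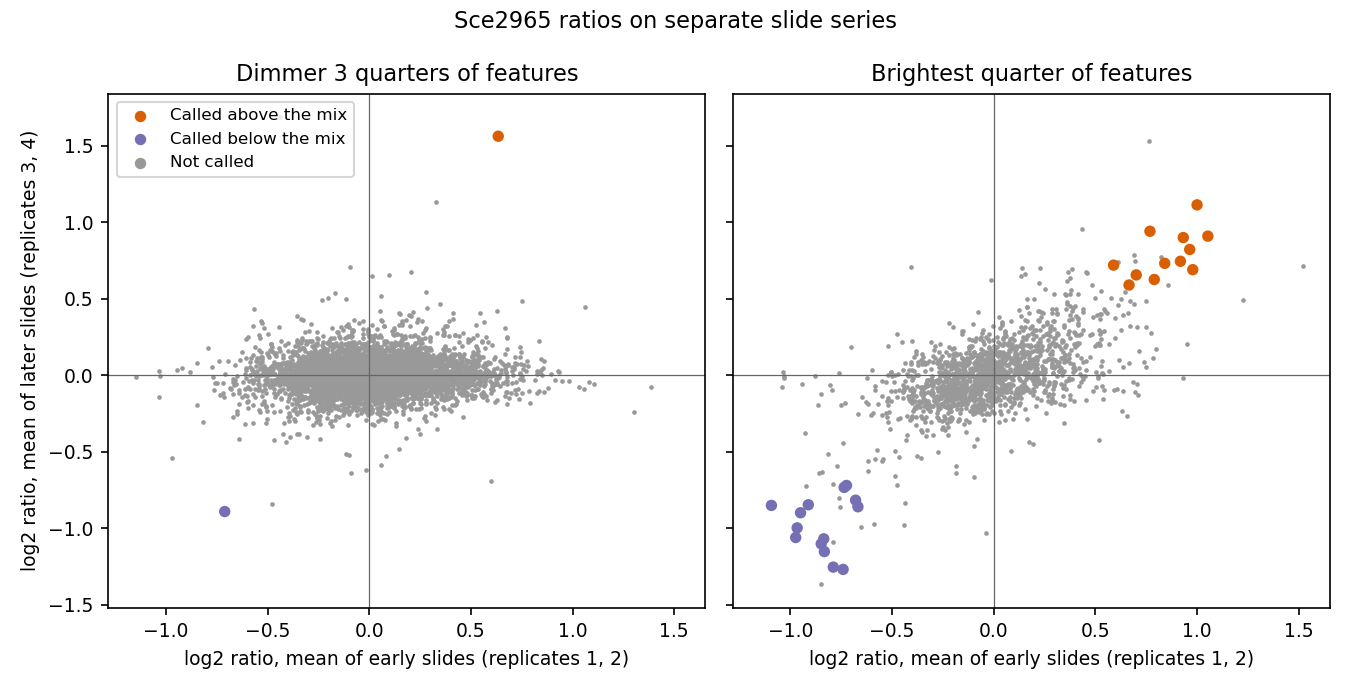
Mean log2 ratio of Sce2965 on its early slides (horizontal axis) against that on its later slides (vertical axis), one point per feature, for the dimmer features (left) and the brightest group (right). Coloured points are the called features. The cloud on the right is tilted, with a Pearson correlation of 0.621, and the cloud on the left is nearly flat.

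Slides not used to choose a feature gave a further view. The 65 features highest on the later slides, with a median of 0.65 there, had a median of 0.43 on the early slides, and 57 of 65 were above the mix. The 65 lowest on the later slides had a median of -0.64 there and -0.59 on the early slides, with 57 of 65 below the mix. Over all features 49.1% were above the mix on the early slides. Choosing on the early slides gave less. The 65 highest there, at a median of 0.84, had a median of 0.05 on the later slides, with 66.2% above the mix, and the 65 lowest, at -0.82, had -0.14, with 80.0% below. With print-tip loess the highest chosen on the early slides had a median of 0.23 on the later ones and the highest chosen on the later slides 0.51 on the early ones. Extreme ratios on the later slides were thus found again on the early slides more often than the reverse, along with the wider spread of duplicate spots on the early slides, whose part in this was not tested. The order of these medians was the same in all 3 sources of ratios.

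The 4 arrays agreed poorly with each other taken in pairs. Replicates 3 and 4, of opposite dye orientation, correlated at -0.377 over 6507 features, and replicates 1 and 2, also opposite, at -0.331. The remaining opposite pairs correlated at 0.195 and 0.177. Pairs of the same orientation, replicates 1 and 4 and replicates 2 and 3, stood at 0.0215 and -0.0075. With print-tip loess the early pair rose to -0.084, and the same-orientation pairs to 0.182 and 0.126, while replicates 3 and 4 stayed at -0.322. With the values the authors deposited, replicates 3 and 4 were at -0.402. The negative correlation on the later slides was thus present in every source, and that on the early slides largely went with print blocks.

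**Figure D4:**
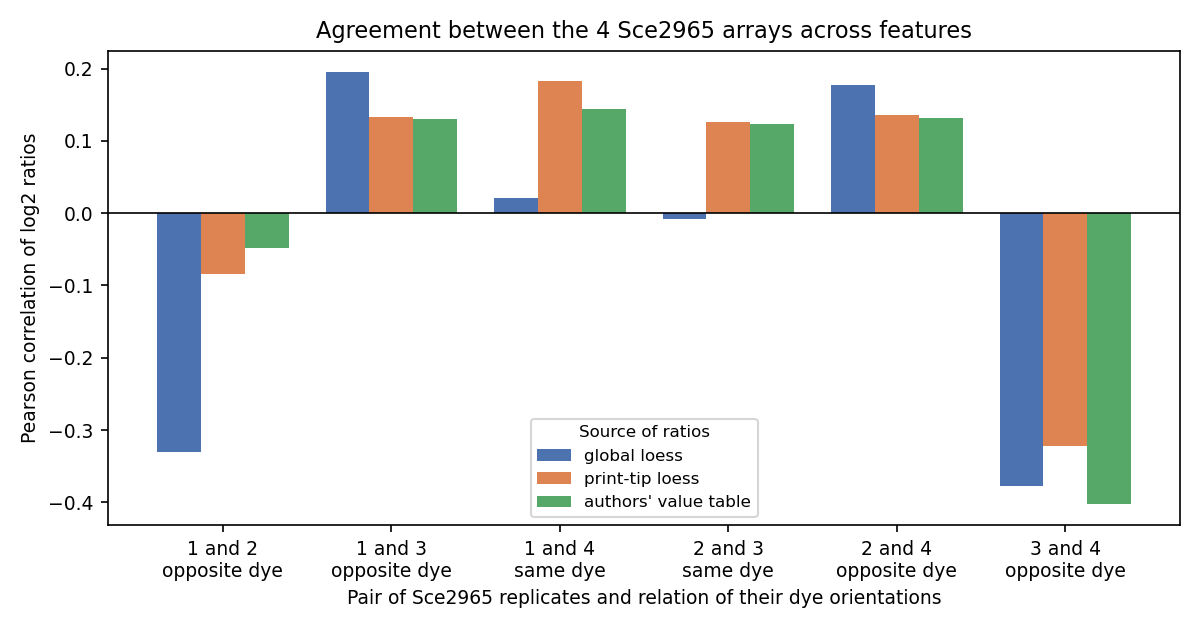
Pearson correlation of log2 ratios across features (vertical axis) for the 6 pairs of Sce2965 replicates (horizontal axis, with the relation of their dye orientations), for 3 sources of ratios (bar colours). Replicates 3 and 4 are negative in all 3 sources, at -0.377, -0.322 and -0.402, and replicates 1 and 2 are far below 0 only with global loess.

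The sum of a slide pair keeps what follows the hybrid, and the difference keeps what follows the dye. Both also hold the error of the slides, since each series had a single slide per dye orientation. On the early slides the part that follows the hybrid had an SD of 0.288 over features and the part that follows the dye 0.405. On the later slides these were 0.164 and 0.243. With these global loess ratios the dye part, slide error included, was the larger on both series. On the early slides the hybrid and dye parts were closer with print-tip loess, at 0.219 and 0.238. In the authors' deposited table they were 0.156 and 0.164 there. Between the series the dye parts correlated at -0.132 with global loess and 0.0131 with print-tip loess, against 0.295 and 0.357 for the hybrid parts. Among the 28 called features the median size of the dye part was 0.124 on the early slides and 0.171 on the later ones, against 0.245 and 0.149 for all features measured on 4 arrays. When the later slides had a dye term of their own, 50 features (0.766%) passed, 22 above and 28 below, and all 28 were among them.

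Fitting loess within print blocks raised the count most among the normalizations. It called 84 features, 44 above the mix and 40 below, or 1.29% of those tested. Of the 28, 24 were among them, which is 85.7% of the 28 and 28.6% of the 84. The sizes of the 84 ranged from 0.41 to 1.17 with a median of 0.61, so smaller departures passed. All 84 had the same sign with global loess, and 81 had an unadjusted limma p under 0.05 there. Under print-tip loess the median of the 13 features was 0.67 and that of the 15 was -0.72, smaller than with global loess. Across 30 other settings the 28 features kept their sign wherever they were tested. This was partly fixed beforehand: many settings left the ratios as they were, and all reused arrays on which the 28 were called. The number called among the 28 ranged from 0 to 28. Over all features the settings called from 0 to 212. Array weights gave 130 (1.99%), the replicate block 212 (3.25%), duplicate spots kept apart 87 (1.33%) and a spread that follows intensity 58 (0.889%). Plain background subtraction gave 11 (0.169%), scaling between arrays 10 (0.153%) and an adjusted p of 0.01 gave 3 (0.046%). The later slides of Sce2965 without its early ones gave 1 (0.0154%).

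**Figure D5:**
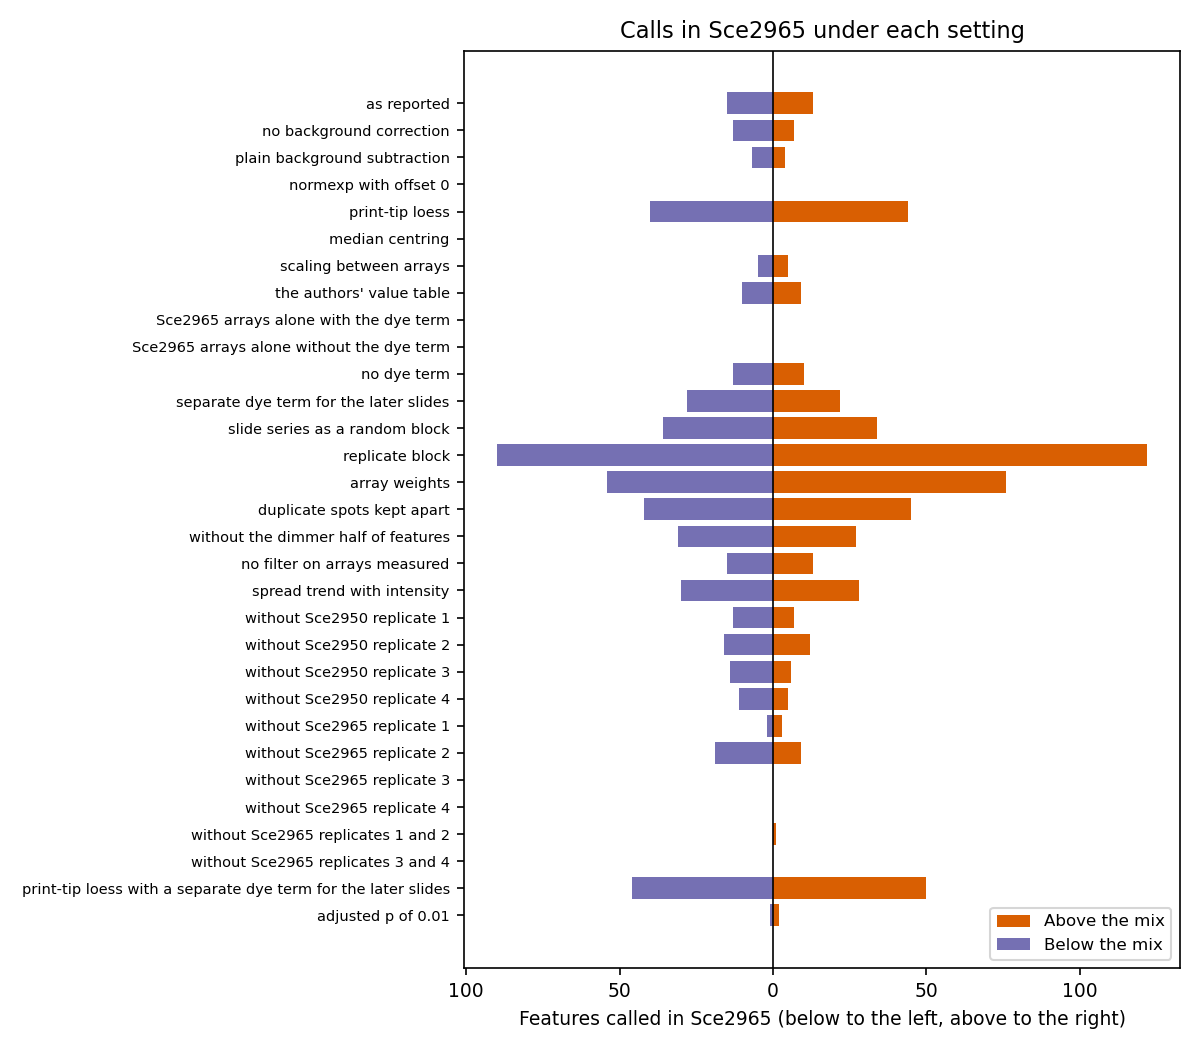
Number of features called in Sce2965 above the mix (bars to the right) and below it (bars to the left), for the reported fit and each other setting (vertical axis). Counts run from 0 to 212. The settings with the most calls had more above than below, at 122 and 90 with the replicate block and 76 and 54 with array weights.

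The departures of Sce2965 were set beside those of Sce2950 from its own mix, to see which of them differed between the hybrids. The test of the difference in the same limma fit passed for 26 features in all (0.398%) and for 17 of the 28. It passed for 4 of the 13 features above the mix and 13 of the 15 below. The 28 were called on their Sce2965 ratio, which is part of the difference, so these counts describe them only. The 13 features above the mix in Sce2965 had Sce2950 ratios between -0.28 and 0.21 with a median of 0.04. The 15 features below fell apart in Sce2950. There were 10 with Sce2950 ratios between 0.73 and 1.19, all called above the mix there, where 12 of 6526 features (0.184%) were called, and 5 with ratios between -0.48 and 0.31. This division, at a Sce2950 ratio of 0.5, was chosen after the values were seen. The 10 had a median of -0.97 in Sce2965 and the 5 a median of -0.93, so their levels in Sce2965 alone were alike. The test of the difference is not given for the 10 and the 5 apart, since the division used the Sce2950 ratio. Sce2965 and Sce2950 arrays were fully separated for 9 of the 13 features and 14 of the 15, as they were for 2.44% of all features tested. The number of the 28 that differed was 10 when replicate 1 or 4 of Sce2950 was left out. It was also 10 when replicate 4 of Sce2965 was left out, and 11 when its replicate 3 was.

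Of the features given by number, spots 6163 and 6164 had Sce2950 ratios of 0.11, -0.21, 0.29 and -0.29 on its replicates 1 to 4, all of them below every Sce2965 array. Spots 919 and 920 had 0.49, -0.60, 0.19 and -0.53, which overlap with the Sce2965 arrays. The difference there was 1.21 and missed the threshold (limma adjusted p = 0.16). Spots 2027 and 2028 had 0.51, 0.88, 0.77 and 0.78 in Sce2950, on the other side of the mix from every Sce2965 array.

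The spread of ratios on an array was compared between the hybrids. It holds the block and dye differences described above as well as departures from the mix, and the early slides of the hybrids came from different slide series, so it is no measure of departure alone. The SD of the log2 ratios was 0.395 ± 0.12 on the arrays of Sce2965 and 0.303 ± 0.0573 on those of Sce2950 (SD, n = 4 each). The difference of 0.0917 was within the spread between arrays (exact permutation test, two-sided p = 0.257, where 0.0286 is the smallest p possible). On the later slides, which held both hybrids, the means were 0.293 and 0.257 (n = 2 each), and the exact permutation test cannot go below 0.333 there. With print-tip loess the means were 0.294 and 0.247 (two-sided exact permutation p = 0.114). With the values the authors deposited, the order over all slides was reversed, at 0.274 and 0.324 (two-sided exact permutation p = 0.343). On the later slides alone the deposited values gave 0.322 for Sce2965 and 0.283 for Sce2950, the order seen with global and print-tip loess.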

How the data were processed

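RNA of 2 hybrids was measured on 8 two-colour spotted arrays. The deposited scanner files give each channel's intensity and local background at 13056 spots. Per the file headers these are raw, with no background subtracted. The hybrid was in channel 2, per the labels. The authors' deposited value table gives the hybrid-to-mix ratio in log2. Its scale, direction and centring were read by setting it against background-subtracted, print-tip loess ratios of the same arrays, with correlations of 0.994 to 0.997 and slopes of 0.982 to 0.991 for Sce2965. For Sce2965 the medians of its columns were 0.000977, -0.00145, -0.00322 and 0.00333 (replicates 1 to 4). How the authors normalized it is not stated in those sources.

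Each odd-numbered spot was averaged with the even one after it: their brightness correlated at 0.967 or more on each array. Background was corrected by normexp (offset 50), ratios were normalized by global loess within arrays, and 0 to 59 spots per array marked to be ignored were left out. On early slides the local background had a median of at most 2.6, so normexp was fitted on slides with little measured background. The model, in limma 3.58.1 under R 4.3.3, covered the 8 arrays with 1 coefficient per hybrid and a shared dye coefficient, leaving 5 residual and 5.5 prior degrees of freedom. limma tests were two-sided, with Benjamini-Hochberg adjustment over 6526 features. The fit was tested on simulated data. Permutation tests used scipy 1.17.1 and figures matplotlib 3.10.9; statmod 1.5.0 estimated block correlations.

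Features given by number are the largest ratios in each direction among those called and on one side of the mix on all 4 arrays. The choice of these arrays, the tests and 30 gene lists, none of which could be matched to spots, was made with earlier results of these data known. No label ties arrays to separate cultures, so the spread behind each p-value is that between arrays and may be technical. A ratio against 0 leaves out the spread of the mix as a sample of its own. The number of arrays limits the precision. The alternatives are listed with their effect in the closing section.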

Additional observations from a re-analysis of the deposited data

Results flagged for a closer look

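At spots 6263 and 6264 replicate 3 lay apart from the other Sce2965 arrays, at -1.59 against -0.92 for the nearest. The gap was 0.83 of the whole range of the 4 arrays, just above the critical value of Dixon's test. Chance flags about 1 in 20 such groups, and 10 measures of the Sce2965 arrays were looked at. Between the hybrids, the limma test of the difference passed at 3 of the 4 features given by number. These features were chosen on their Sce2965 ratio, which is part of the difference, so the values describe them only. Over all features it passed for 26 of 6526 (0.398%). The log2 ratio of Sce2965 minus that of Sce2950 was 1.08 at spots 6163 and 6164 (limma adjusted p = 0.0201), -2.21 at spots 6263 and 6264 (limma adjusted p = 0.0011) and -1.75 at spots 2027 and 2028 (limma adjusted p = 0.00071).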

How the results depend on the processing

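The 28 features kept their sign in all 30 other settings in which they were tested. Many of these settings left the ratios as they were, and all reused arrays on which the 28 were called, so this is no test of them. The count of calls did not hold. It was 84 with print-tip loess, 96 with print-tip loess and a dye term for the later slides alone, 50 with that dye term alone, 70 with slide series as a random block, 130 with array weights, 87 with duplicate spots kept apart, and 58 both without features under the median brightness and with a spread that follows intensity. It fell to 11 with plain background subtraction, 10 after scaling between arrays and 3 when the adjusted p had to be under 0.01. No feature passed (0) after normexp with offset 0, after median centring or with the Sce2965 arrays alone, with or without the dye term. At an unadjusted p under 0.05 these limma fits had 314 and 183 of 6526 features, and 195 and 187 of 6527. Each is under a share of 0.05, which would pass with no departure at all and a well-estimated error. How well these fits estimate the error was not tested. The count of calls was 20 without background correction, 23 without a dye term and 19 in the authors' deposited table. Of the 19 in that table, 15 were among the 28. Leaving out 1 array of either hybrid gave 0 to 28. Without replicates 1 and 2 of Sce2965 it was 1, and without replicates 3 and 4 it was 0, with 468 features at an unadjusted p under 0.05 in limma; these 2 settings, and print-tip loess with the separate dye term, were chosen after seeing the data. A stricter threshold lowers the count by construction; for the other settings, those with fewer arrays included, the cause was not tested. Of the 28, the number that differed between the hybrids was 17. It became 11 with normexp at offset 0, 10 with median centring, 11 in the authors' deposited table and 11 at an adjusted p of 0.01. With 1 array left out it was 10 to 17, and without replicates 3 and 4 of Sce2965 it was 0. In that last fit 26 of the 28 had an unadjusted limma p under 0.05. The 28 were called on their Sce2965 ratio, with the arrays left in that fit included, so the 26 describe them only. The share over all features is not given. The hybrids share replicate numbers in the labels. Same-numbered arrays deviated together on replicates 3 and 4, at correlations of 0.663 and 0.655, where the hybrids share a slide series and a dye orientation. On replicates 1 and 2, where the hybrids differ in both, the correlations were -0.111 and 0.0548. Replicate number thus cannot be told apart from slide series and dye orientation here, and whether it pairs the arrays was not tested. With the replicate block 212 features passed, 122 above and 90 below.

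At spots 919 and 920 the call was lost in 17 of 29 other limma settings, with ratios of 0.63 to 1.67 (adjusted p from 3.94e-05 to 0.851). At spots 6263 and 6264 it was lost in 15 of 30, with ratios of -1.26 to -0.61, and in 8 of 30 for each of the remaining features given by number. Dim features limit the rest: in the dimmest of 4 equal groups the early and later slides correlated at 0.012 and 0 features passed.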
